A study of Sus scrofa with 16 samples.

Results

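The enzymes of histidine breakdown hand carbon to folate, and a further set of enzymes uses and remakes this folate one-carbon pool. The 10 genes described, for both sets, were found by annotated pig symbol among the 25880 gene IDs listed for every pig: *HAL*, *UROC1*, *AMDHD1*, *FTCD*, *MTHFD1*, *ALDH1L1*, *SHMT1*, *SHMT2*, *GNMT* and *MAT1A*. They were picked with the diet differences of these same pigs in view, so the values by diet are a description and support nothing beyond themselves. The comparison of the sexes and the co-variation among pigs on one diet had no part in the choice.

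The samples were livers of 16 crossbred pigs, from Polish Landrace x Polish Large White sows and Duroc x Pietrain boars, fattened from about 60 to 118 kg in individual pens on diets of similar energy and protein. Group R (5 pigs, 3 gilts and 2 barrows) had rapeseed oil as the added fat, group B (5 pigs, 2 gilts and 3 barrows) had beef tallow, and group C (6 pigs, 3 gilts and 3 barrows) had coconut oil. No group went without an added fat, so every difference below is between fats. One library of mRNA 3′ ends was made per pig, in which each transcript gives reads near its end only.

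The reads counted on genes numbered 801172 to 1425550 per rapeseed oil pig, 879114 to 1490944 per beef tallow pig and 705669 to 1767671 per coconut oil pig. Levels are given as CPM, normalized counts scaled to library size over all 16 libraries. Members are compared within a gene only, not between genes. Reads with more than 1 alignment were left uncounted. Their share was highest in coconut oil 3 (38.1%), beef tallow 3 (33.2%) and rapeseed oil 4 (32.5%), with medians of 26.5%, 22.2% and 19.8% over groups R, B and C. Hepatocyte transcripts were present in every library, with a summed level of 5 markers, led by *ALB* (serum albumin), of at least 62965 CPM. In whole liver, fewer cells of a type and less RNA per cell cannot be told apart.

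Histidine is broken down mainly in the liver. Histidine ammonia-lyase removes its amino group to give urocanate, urocanate hydratase and imidazolonepropionase open the ring, and the formimino group that is left is handed to tetrahydrofolate by formimidoyltransferase cyclodeaminase. The folate pool that receives this carbon also takes carbon from serine and glycine, supplies the making of purines and thymidylate, and feeds the methyl group of methionine, from which S-adenosylmethionine is made.

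In Sscrofa11.1, with positions from RefSeq, *HAL* (ENSSSCG00000000892) lies at chr5:87522483-87547489 and *AMDHD1* (ENSSSCG00000000893) at chr5:87551887-87569271, with 4397 bases between them. *UROC1* (ENSSSCG00000001823) at chr7:53592763-53634214 and *ALDH1L1* (ENSSSCG00000030626) at chr7:53748585-53794777 share a second neighbourhood and are 114370 bases apart. *MTHFD1* (ENSSSCG00000002269) lies at chr7:88471317-88533690 and *GNMT* (ENSSSCG00000033214) at chr7:38038359-38041218. *SHMT1* (ENSSSCG00000036208) lies at chr12:60414421-60435451, *SHMT2* (ENSSSCG00000037077) at chr5:22535780-22540322 and *MAT1A* (ENSSSCG00000010337) at chr14:82109405-82126487. For *FTCD* (ENSSSCG00000027926) the annotation gives no chromosome.

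Of the genes, 7 had enough reads to be described by diet. *AMDHD1* was at the edge of measurement, with 1 to 33 reads per pig, and *SHMT1*, *SHMT2* and *MAT1A* had at most 5 reads in any pig. The other 6 genes had at least 26 reads in every pig.

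**Figure D1:**
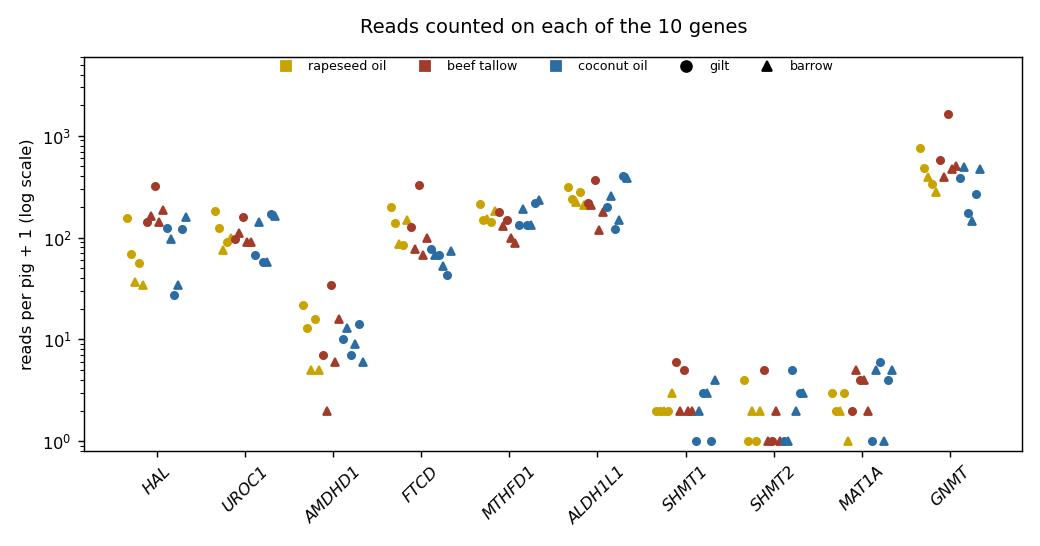
Reads counted on each of the 10 genes, 1 point per pig, as reads + 1 on a log axis, coloured by diet, with circles for gilts and triangles for barrows. *SHMT1*, *SHMT2* and *MAT1A* stay at 5 reads or fewer in all 16 pigs, and *AMDHD1* spans 1 to 33 reads.

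In the main edgeR fits, with the filter on low counts, *HAL* was the only member that changed past the threshold between diets. Its level was about 2.65 times as high in the beef tallow group as in the rapeseed oil group. *HAL* encodes histidine ammonia-lyase, the enzyme of the first and committing step. No other member tested passed the threshold in those fits in any pair of diets. DESeq2 and edgeR without that filter each also called *FTCD* from R to C and *HAL* and *GNMT* from B to C. Over all genes, DESeq2 called 93 from R to C and 46 from B to C.

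In group R the *HAL* level was 114, 69.8, 46.5, 56.7 and 32.5 CPM in pigs 1 to 5. In group B it was 107, 173, 210, 150 and 207 CPM. In group C it ran from 39.9 to 99.5 CPM with a median of 78.3 CPM. Of the 5 beef tallow pigs, 4 lay above every other pig, and beef tallow 1 lay just under rapeseed oil 1 but above all coconut oil pigs. Groups R and B therefore overlapped by a single pair of pigs, groups B and C did not overlap, and group C lay within the range of group R.

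The mean *HAL* level was 63.9 ± 31.2 CPM (SD, n = 5) on rapeseed oil, 169 ± 42.9 CPM (SD, n = 5) on beef tallow and 70.9 ± 25.4 CPM (SD, n = 6) on coconut oil. From R to B the log2 fold change was 1.39 (SE 0.29, 95% interval 0.78 to 2.00), with an adjusted p of 0.0305 (edgeR). *HAL* was thus the 1 gene called among 7 members tested, where 1.11% of the 6318 genes tested were called and 0.649% were called in that direction. Between B and C the log2 fold change of *HAL* was -1.23 (SE 0.25, 95% interval -1.75 to -0.71), which missed the threshold (adjusted p = 0.0668, edgeR). It passed in 2 of 8 alternative fits, with DESeq2 and without the filter on low counts, with values of -1.35 to -1.20 over the 8. Between R and C the log2 fold change was 0.15 (SE 0.29, 95% interval -0.46 to 0.76), with an adjusted p of 0.875 (edgeR).

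The *HAL* call from R to B was narrow. It was lost when any 1 of rapeseed oil 2, 3, 4 or 5 or of beef tallow 2, 4 or 5 was left out, with log2 fold changes of 1.22 to 1.72 and adjusted p of 0.0193 to 0.104 (edgeR) over the 10 fits that each left out 1 pig. No relation of a member to depth or to the share of reads with several alignments passed adjustment over the 14 computed (7 genes by 2 measures). With the mean of each diet subtracted, the Pearson r of *HAL* with the log2 number of reads on genes was 0.54 over 16 pigs (Spearman rho 0.59, permutation p = 0.0449 and 0.0314, adjusted 0.314 and 0.367) and 0.53 without the 2 pigs farthest from the median depth. Taken diet by diet, this r was 0.70, -0.27 and 0.81 for groups R, B and C. With the several-alignment share, *HAL* had r = -0.40 over 16 pigs after the same subtraction (rho -0.47, permutation p = 0.148 and 0.0942, adjusted 0.414 and 0.367), with -0.08, 0.38 and -0.88 within the diets and -0.44 without coconut oil 3 and beef tallow 3. With that share as a covariate, *HAL* from R to B had a log2 fold change of 1.39 (adjusted p = 0.0214, edgeR). The median depth was 1009449 reads in group R and 983963 reads in group B, and the part of depth in the diet difference was not tested.

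**Figure D2:**
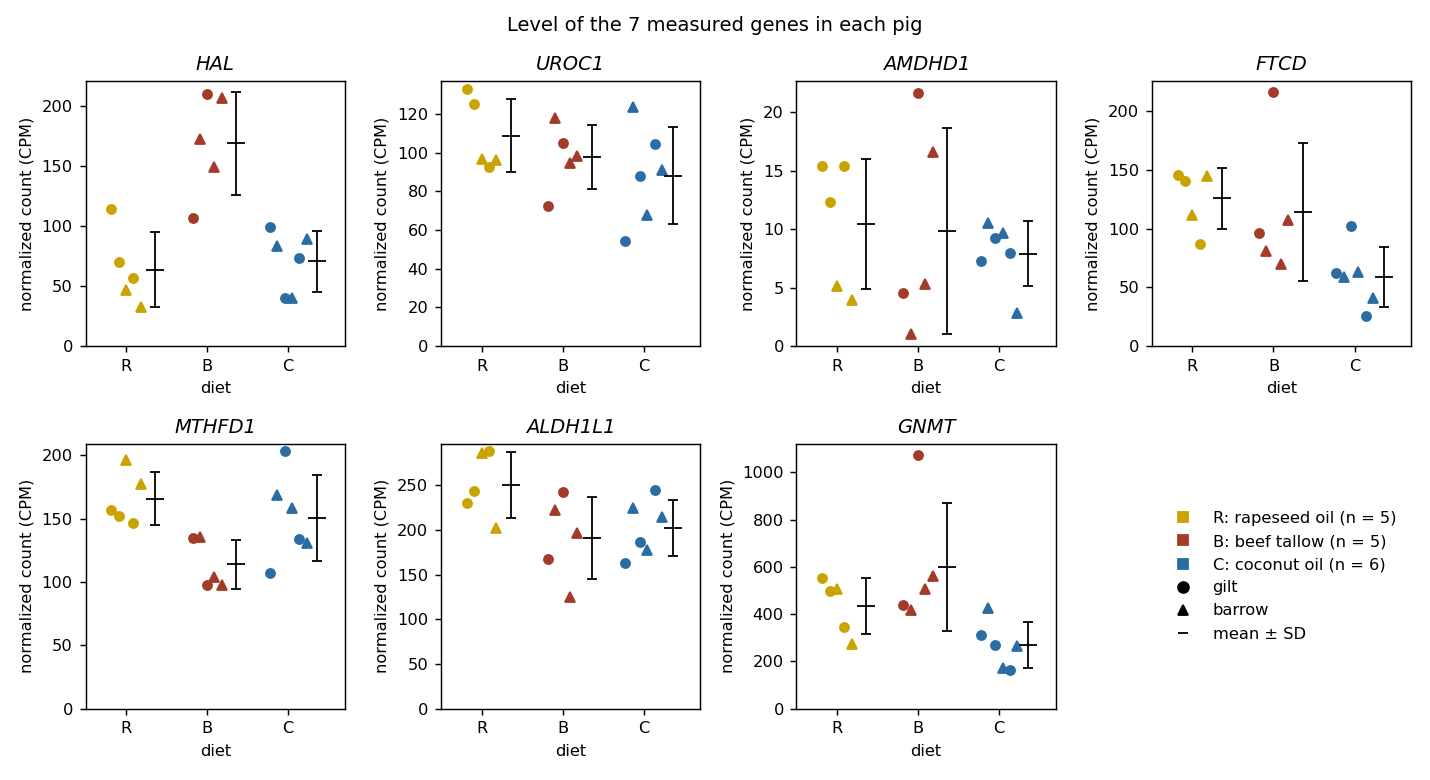
Normalized count (CPM, vertical axis from 0) of the 7 measured genes in each pig, in 1 panel per gene, for rapeseed oil (R), beef tallow (B) and coconut oil (C), with circles for gilts, triangles for barrows and the mean ± SD beside the points. For *HAL*, 4 of 5 beef tallow pigs lie above all other pigs, and beef tallow 3 stands alone at the top for *FTCD* (216 CPM) and *GNMT* (1075 CPM).

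For the steps that follow *HAL*, no difference between diets passed the threshold in the main edgeR fits. *FTCD* from R to C passed it with DESeq2 and with edgeR without the filter on low counts. *UROC1* encodes urocanate hydratase, the enzyme that acts on the urocanate *HAL* makes. Its level was 133, 125, 97.0, 92.7 and 96.4 CPM in group R and 72.6, 118, 105, 94.6 and 98.4 CPM in group B. In group C it ran from 54.2 to 124 CPM with a median of 89.6 CPM. The 3 groups overlapped widely. The mean was 109 ± 18.8 CPM (SD, n = 5), 97.7 ± 16.6 CPM (SD, n = 5) and 88.2 ± 24.9 CPM (SD, n = 6) in groups R, B and C. The log2 fold change was -0.16 from R to B (95% interval -0.55 to 0.23), -0.31 from R to C (95% interval -0.72 to 0.11) and -0.14 from B to C (95% interval -0.58 to 0.30), with adjusted p of 0.728, 0.542 and 0.835 (edgeR). The interval from R to B thus leaves out any rise of *UROC1* as large as the lower bound for *HAL*, 0.78.

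*AMDHD1* encodes imidazolonepropionase, the third enzyme of the route. Its level was 15.4, 12.3, 5.17, 15.5 and 3.93 CPM in group R and 4.58, 1.06, 21.7, 5.31 and 16.6 CPM in group B, and it ran from 2.82 to 10.5 CPM in group C. Both the lowest and the highest pig of all 16 were beef tallow pigs, so the spread within a diet exceeded any difference between diets. The log2 fold change from R to B was -0.07, with a 95% interval of -1.24 to 1.10, and from R to C it was -0.51, with a 95% interval of -1.33 to 0.31 (adjusted p = 0.968 and 0.64, edgeR). The value from R to C was -0.51 to -0.19 over 7 alternative fits, and -0.72 to -0.28 with 1 pig left out. Between B and C the gene did not pass the filter on low counts. The interval from R to B holds the lower bound for *HAL*, 0.78, but not its estimate, 1.39.

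*FTCD* encodes formimidoyltransferase cyclodeaminase, which moves the formimino group onto tetrahydrofolate and so joins histidine breakdown to the folate pool. Its lowest levels were in the coconut oil group. Group R had 146, 141, 111, 86.5 and 145 CPM, and group B had 96.3, 80.6, 216, 70.1 and 107 CPM. Group C ran from 25.7 to 102 CPM with a median of 60.5 CPM. Of the 6 coconut oil pigs, 5 lay below every pig of the other groups, and the exception, coconut oil 3 at 102 CPM, was above rapeseed oil 4 and beef tallow 1, 2 and 4. Beef tallow 3, at 216 CPM, lay above all other pigs.

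The mean *FTCD* level in group C, 58.8 ± 25.6 CPM (SD, n = 6), was 0.467 times that of group R, 126 ± 26.1 CPM (SD, n = 5). The log2 fold change from R to C was -1.15 (SE 0.26, 95% interval -1.69 to -0.62), short of the threshold with an adjusted p of 0.0813 (edgeR). It passed without rapeseed oil 4 (adjusted p = 0.0444, edgeR) and without coconut oil 3 (adjusted p = 0.0145, edgeR). It also passed with DESeq2 (adjusted p = 0.0103) and without the filter on low counts (adjusted p = 0.000567, edgeR). Between B and C it was -1.0 (SE 0.32, 95% interval -1.69 to -0.32, adjusted p = 0.29, edgeR), and -0.64 without beef tallow 3. Between R and B it was -0.13 (SE 0.27, 95% interval -0.71 to 0.45, adjusted p = 0.872, edgeR), and -0.51 without that pig. The first and the last enzyme of the route thus had their high and low groups in different places: *HAL* stood high with beef tallow, and *FTCD* had its lowest pigs with coconut oil.

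**Figure D3:**
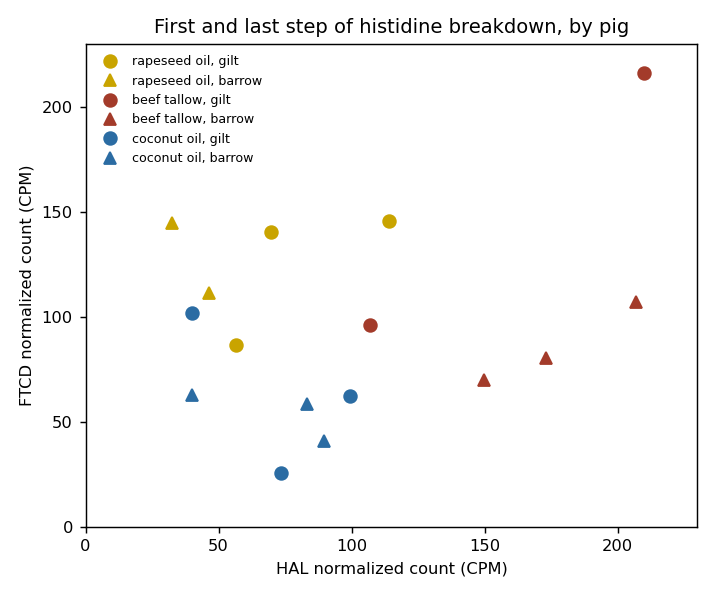
Level of *HAL* (horizontal axis, CPM) against *FTCD* (vertical axis, CPM), the first and last step of histidine breakdown, with 1 point per pig, coloured by diet, with circles for gilts and triangles for barrows. Of the 5 beef tallow pigs, 4 lie right of all other pigs, 5 of 6 coconut oil pigs lie below all other pigs, and beef tallow 3 is highest on both axes at 210 and 216 CPM.

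Among the folate enzymes, *MTHFD1* had its lowest mean in the beef tallow group. It encodes the trifunctional cytosolic enzyme that interconverts the one-carbon forms of folate. Its level was 157, 152, 197, 146 and 177 CPM in group R and 134, 136, 97.8, 104 and 97.3 CPM in group B. In group C it ran from 107 to 204 CPM with a median of 146 CPM. Every beef tallow pig lay below every rapeseed oil pig, and group C overlapped both. The log2 fold change from R to B was -0.54 (SE 0.17, 95% interval -0.90 to -0.18), with an unadjusted p of 0.00631 and an adjusted p of 0.141 (edgeR). *MTHFD1* was the 1 member of 7 tested whose groups R and B did not overlap, beside 4.57% of all genes tested, and 1.99% in that direction. For *MTHFD1* the value was 0.39 from B to C (SE 0.19, adjusted p = 0.437, edgeR) and -0.15 from R to C (SE 0.17, adjusted p = 0.766, edgeR).

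*ALDH1L1* encodes cytosolic 10-formyltetrahydrofolate dehydrogenase, which releases the carbon of formylfolate as carbon dioxide. Its level was 230, 244, 286, 288 and 203 CPM in group R and 168, 223, 243, 125 and 197 CPM in group B. In group C it ran from 163 to 245 CPM with a median of 201 CPM. The groups overlapped in all 3 pairs of diets. The mean was 250 ± 36.8 CPM (SD, n = 5), 191 ± 46.3 CPM (SD, n = 5) and 202 ± 31.2 CPM (SD, n = 6) for groups R, B and C. The log2 fold change was -0.38 from R to B (95% interval -0.79 to 0.02), -0.31 from R to C (95% interval -0.62 to 0.01) and 0.08 from B to C (95% interval -0.31 to 0.47), with adjusted p of 0.36, 0.401 and 0.895 (edgeR).

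*SHMT1* and *SHMT2* encode the cytosolic and mitochondrial serine hydroxymethyltransferases, which load folate with carbon from serine. *SHMT1* had 26 reads over the 16 pigs, with 6, 12 and 8 in groups R, B and C and none in 2 pigs. *SHMT2* had 19 reads, with 5, 5 and 9 in the 3 groups and none in 7 pigs. No difference between diets could be detected at these counts, and both genes were left out by the filter on low counts in every comparison.

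A low count in these libraries does not by itself show a low transcript level. *SERPINA1*, whose product alpha-1 antitrypsin is made in quantity by hepatocytes, had 7 reads in all and none in 12 of 16 pigs. *AMT* of the glycine cleavage system and *GAMT*, which makes creatine, had none in any pig. The cause of these low counts was not tested.

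*GNMT* encodes glycine N-methyltransferase, a folate-binding enzyme that spends surplus S-adenosylmethionine by methylating glycine. Its level was 552, 497, 505, 346 and 274 CPM in group R and 439, 417, 1075, 505 and 561 CPM in group B. In group C it ran from 164 to 428 CPM with a median of 267 CPM. All 3 pairs of groups overlapped, B and C narrowly: the lowest beef tallow pig, at 417 CPM, lay just below the highest coconut oil pig. The mean was 435 ± 119 CPM (SD, n = 5), 599 ± 272 CPM (SD, n = 5) and 268 ± 97.2 CPM (SD, n = 6) in groups R, B and C.

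From B to C the log2 fold change of *GNMT* was -1.16 (SE 0.28, 95% interval -1.74 to -0.58, adjusted p = 0.2, edgeR), and -0.84 without beef tallow 3. It passed in 2 of 8 alternative fits, with DESeq2 and without the filter on low counts. The value from R to C was -0.70 (SE 0.23, 95% interval -1.20 to -0.21, adjusted p = 0.217, edgeR). That from R to B was 0.46 (SE 0.27, 95% interval -0.10 to 1.03, adjusted p = 0.424, edgeR), which became 0.14 without beef tallow 3.

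*MAT1A* encodes the liver form of methionine adenosyltransferase, which makes S-adenosylmethionine. It had 34 reads in all, with 6, 12 and 16 in groups R, B and C and none in 3 pigs, and it was left out by the filter in every comparison.

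**Figure D4:**
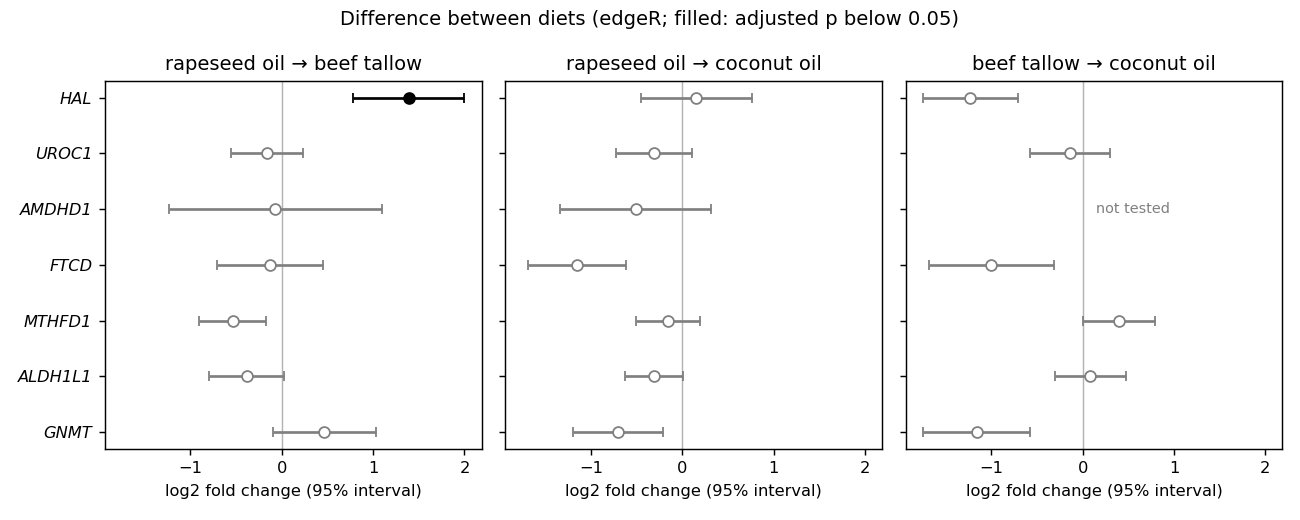
Log2 fold change with its 95% interval (horizontal axis) for the 7 measured genes in each pair of diets, the diet named first being the reference. The only filled point, past an adjusted p of 0.05 in edgeR, is *HAL* from rapeseed oil to beef tallow at 1.39, and *AMDHD1* was not tested from beef tallow to coconut oil.

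Counted over the members, 7 of 10 passed the filter from R to B, 7 from R to C and 6 from B to C. From R to B, 1 member was called and 2 had an unadjusted p below 0.05, *HAL* higher and *MTHFD1* lower in group B, where 15% of all genes tested were past that level, 8.33% higher and 6.66% lower. The median log2 fold change of the 7 was -0.13, and that of all genes tested was 0.01. Between R and C, no member was called in the main edgeR fit, and 1 (*FTCD*) was called with DESeq2 or without the filter. An unadjusted p below 0.05 was seen for 2, *FTCD* and *GNMT*, both lower in group C. Among the 6528 genes tested there, 0.138% were called with edgeR and 13% had such a p (6.45% higher and 6.53% lower). Over all genes, DESeq2 called 93 in this pair. No member had groups that did not overlap, beside 1.46% of all genes, and the median of the members was -0.31 against -0.00 over all genes. Between B and C, no member was called in the main edgeR fit, and 2 (*HAL*, *GNMT*) were called with DESeq2 or without the filter. An unadjusted p below 0.05 was seen for 3, *HAL*, *FTCD* and *GNMT*, all lower in group C. Of the 6812 genes tested there, 0.0587% were called with edgeR and 11.5% had such a p (5.24% higher and 6.21% lower). Over all genes, DESeq2 called 46 in this pair. *HAL* was the 1 member whose groups B and C did not overlap, beside 1.45% of all genes and 0.881% in that direction. The median of the members was -0.57 against -0.00 over all genes. The members were chosen on these contrasts, and each diet enters 2 of the pairs, so the 3 sets of values share pigs.

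The sexes offered a contrast that had no part in the choice of the genes. None of the 6 members tested was called between 8 gilts and 8 barrows with edgeR, where 0.0786% of the 6365 genes tested were called. None had an unadjusted p below 0.05, beside 4.02% of all genes, and none was called with DESeq2. The log2 fold change from gilts to barrows was 0.06 (SE 0.35) for *HAL* (-0.24 with diet as a covariate), 0.01 (SE 0.17) for *UROC1* and 0.04 (SE 0.17) for *MTHFD1*. It was -0.39 (SE 0.31) for *FTCD*, -0.11 (SE 0.16) for *ALDH1L1* and -0.24 (SE 0.30) for *GNMT*. The larger standard errors of *HAL*, *FTCD* and *GNMT* set how small a difference between the sexes could be seen. *AMDHD1* did not pass the filter on low counts here, so its difference between the sexes was not tested. Its mean was 11.7 CPM in gilts (4.58 to 21.7) and 6.89 CPM in barrows (1.06 to 16.6).

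Among pigs on the same diet, no pair of members was related past the threshold. Of the 21 pairs of the 7 measured genes, with the mean of each diet subtracted, 15 had a positive and 6 a negative Pearson r, from -0.65 to 0.57. At an unadjusted permutation p below 0.05 there were 3 pairs, and the smallest p adjusted over the 21 pairs was 0.205.

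The relation farthest from 0 was between *HAL* and *MTHFD1*, at r = -0.65 over 16 pigs after that subtraction (rho -0.64, permutation p = 0.00974 and 0.0117, adjusted 0.205 and 0.215). It was -0.55, -0.68 and -0.75 within groups R, B and C, and -0.65 without the 2 pigs farthest from the median. The relation missed the threshold. *MTHFD1* had r = -0.48 with the log2 number of reads on genes over the same 16 pigs (rho -0.47, permutation p = 0.122 and 0.105, adjusted 0.414 and 0.367), where *HAL* had 0.54. For *MTHFD1* this was -0.54, 0.06 and -0.68 within groups R, B and C, and -0.41 without the 2 pigs farthest from the median depth. The part of depth in the relation of both genes was not tested. *HAL* and *GNMT* had r = 0.57 (rho 0.62, permutation p = 0.0283 and 0.0205, adjusted 0.297 and 0.215), and 0.45 without the 2 farthest pigs. *FTCD* and *GNMT* also had r = 0.57 (rho 0.46, permutation p = 0.0428 and 0.0954, adjusted 0.299 and 0.429). That relation rested on beef tallow 3 and coconut oil 5, since r was 0.06 without them. *HAL* and *FTCD*, the first and last genes of the route, had r = -0.07 (rho 0.04, permutation p = 0.8 and 0.887, adjusted 0.885 and 0.94).

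Beyond the members, 52 genes of 4 lists cover the other fates of histidine, the rest of folate metabolism, the glycine, serine and choline donors of one-carbon units, and the methionine cycle with transsulfuration. Of these, 44 had a gene ID, and 25 were tested from R to B, 26 from R to C and 26 from B to C. None was called with edgeR in any pair of diets. From R to B, 2 were higher and 2 lower at an unadjusted p below 0.05, with a median log2 fold change of -0.18. Between R and C, none was higher and 4 were lower, with a median of -0.04. Between B and C, 2 were higher and 2 lower, with a median of -0.01. The shares of all genes past the same unadjusted level were 15%, 13% and 11.5%, as above.

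The gene of these lists that came nearest to the threshold from R to B was *HNMT*, histamine N-methyltransferase, which inactivates the amine made from histidine. It had few reads, 4 to 29 per pig and 4 to 15 in group B, so its values are imprecise. Its level was 21.3, 26.7, 16.8, 16.5 and 22.6 CPM in group R and 9.93, 6.37, 9.85, 12.7 and 4.42 CPM in group B. In group C it ran from 8.76 to 18.5 CPM with a median of 14.0 CPM. Every beef tallow pig lay below every rapeseed oil pig, as for 1.99% of all genes tested. The log2 fold change from R to B was -1.24 (SE 0.30, adjusted p = 0.0563, edgeR). It passed in 4 of 7 alternative fits, DESeq2 among them (adjusted p = 0.0167), and without beef tallow 3 (adjusted p = 0.0438, edgeR). The setting of at least 10 reads in every pig left the gene out. For R to C the log2 fold change was -0.58 (SE 0.24, adjusted p = 0.309, edgeR), and from B to C it was 0.66 (SE 0.30, adjusted p = 0.423, edgeR).

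Other genes of the 4 lists were named for their small unadjusted p. *ATIC*, which uses formylfolate in the last steps of purine synthesis, had a log2 fold change of -0.71 (SE 0.24, adjusted p = 0.217, edgeR) from R to C. *DMGDH*, dimethylglycine dehydrogenase of choline breakdown, had -0.40 (SE 0.14, adjusted p = 0.255, edgeR) from R to C, with every coconut oil pig below every rapeseed oil pig, as for 0.812% of all genes tested. *NNMT*, which methylates nicotinamide with S-adenosylmethionine, had -0.98 (SE 0.33, adjusted p = 0.295, edgeR) from B to C.

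A list of 16 genes for the breakdown of other amino acids set the histidine route beside its kin. All but 1 were tested in each pair of diets and none was called with edgeR. At an unadjusted p below 0.05, 1 was higher and 3 were lower from R to B, 2 were higher and 3 lower from R to C, and 2 were higher and 1 lower from B to C. The shares of all genes tested past that level were 15% (8.33% higher, 6.66% lower), 13% (6.45%, 6.53%) and 11.5% (5.24%, 6.21%). The median log2 fold change was 0.01, -0.18 and 0.01. *GSTZ1*, of tyrosine breakdown, had -0.52 (SE 0.20, adjusted p = 0.212, edgeR) from R to B and -0.46 (SE 0.15, adjusted p = 0.206, edgeR) from R to C. In the latter pair every coconut oil pig lay below every rapeseed oil pig, as for 0.812% of all genes tested. *HAAO*, of tryptophan breakdown, had -0.87 (SE 0.30, adjusted p = 0.174, edgeR) from R to B and 0.71 (SE 0.27, adjusted p = 0.343, edgeR) from B to C. Its value from R to B was -1.07 to -0.57 with 1 pig left out, the latter without rapeseed oil 1. In 1 of 8 alternative fits it passed from R to B. *HPD*, also of tyrosine breakdown, had -0.70 (SE 0.25, adjusted p = 0.302, edgeR) from B to C.

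**Figure D5:**
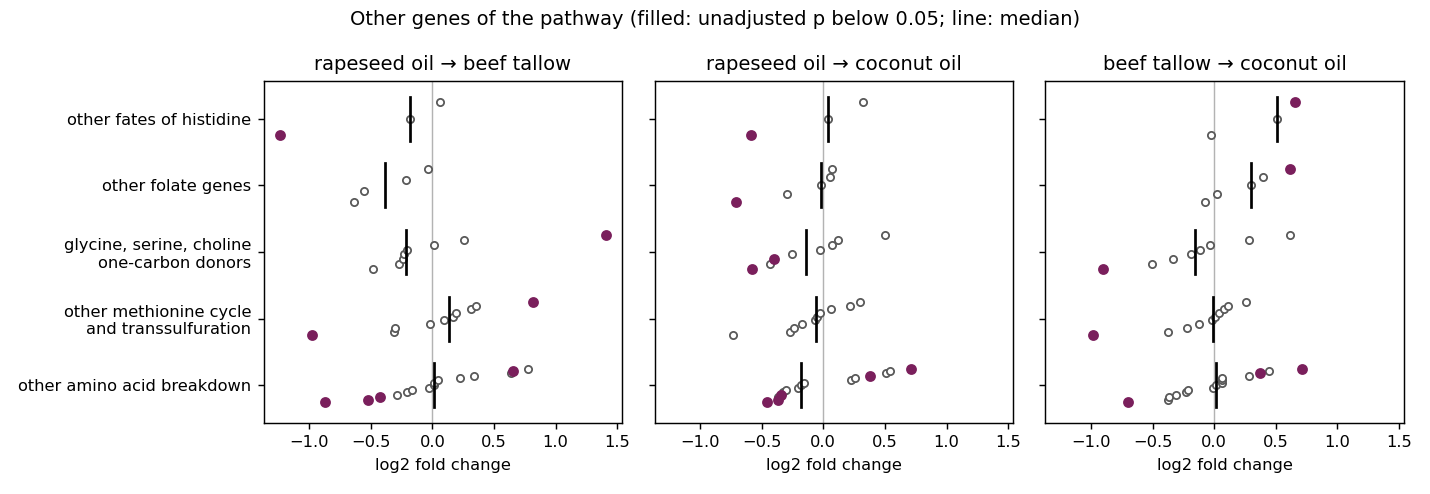
Log2 fold change (horizontal axis) of each tested gene of 4 lists around the histidine and folate route and of a list for other amino acids, in each pair of diets, with the diet named first as the reference. Filled points have an unadjusted p below 0.05, black lines are list medians, and no gene shown passed an adjusted p of 0.05 in edgeR.

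A set of 3 genes of nitrogen disposal was named after their values were seen, for a mean that was highest in the beef tallow group. *CPS1*, carbamoyl phosphate synthetase of the urea cycle, had 212, 271, 261, 273 and 167 CPM in group R and 339, 398, 622, 353 and 387 CPM in group B. In group C it ran from 253 to 309 CPM with a median of 270 CPM. Every beef tallow pig lay above all pigs of the other groups, and 2.58% of all genes tested had group B above group R without overlap and 0.881% had group C below group B. *CPS1* had a log2 fold change of 0.83 from R to B (SE 0.20, adjusted p = 0.0627, edgeR) and -0.59 from B to C (SE 0.17, adjusted p = 0.235, edgeR). From R to B it passed in 4 of 8 alternative fits, DESeq2 among them (adjusted p = 0.0111), with log2 fold changes of 0.81 to 0.96 over the 8. *SDS*, serine dehydratase, had 1.41 from R to B (SE 0.53, adjusted p = 0.214, edgeR), with rapeseed oil pigs between 19.7 and 487 CPM and beef tallow pigs between 406 and 748 CPM. It passed in 2 of 8 alternative fits, without the filter on low counts (adjusted p = 0.00186, edgeR) and with the several-alignment share as a covariate (2.31, adjusted p = 0.0306, edgeR). *ARG1*, the arginase of the urea cycle, had 0.77 from R to B (SE 0.24, adjusted p = 0.135, edgeR), and it passed without beef tallow 3 (adjusted p = 0.0405, edgeR). It had 0.52 from R to C (SE 0.23, adjusted p = 0.334, edgeR) and -0.24 from B to C (SE 0.22, adjusted p = 0.695, edgeR). *ASS1*, argininosuccinate synthase of the same cycle, had 0.22 from R to B (SE 0.23, adjusted p = 0.704, edgeR) and 0.01 from B to C (SE 0.22, adjusted p = 0.996, edgeR).

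*CPS1*, *SDS* and *ARG1* are also markers of hepatocytes near the portal vein, the zone where amino acids are mainly broken down. The periportal list held 7 genes, of which 6 had a gene ID and 5 were tested from R to B, and its median log2 fold change there was 0.77, which is the value of *ARG1*. The same 3 genes had an unadjusted p below 0.05, beside 15% of all genes tested (8.33% higher), and none was called with edgeR. The other 2 tested were *ASS1* (0.22) and *PCK1* of glucose synthesis (-0.01). The list's summed level, most of all from *ASS1*, ran from 6052 to 9835 CPM in group R (median 8001), from 7009 to 11122 CPM in group B (median 9930) and from 6557 to 10304 CPM in group C (median 9369). The pericentral list of 9 genes, led by *CYP2E1*, ran from 1833 to 3225 CPM (median 2528), from 1708 to 2480 CPM (median 2103) and from 1625 to 2755 CPM (median 2317). Both sums overlapped between all diets, and their part in the *HAL* difference was not tested.

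Markers of other cells were set beside the members. The summed level of 7 Kupffer cell markers, led by *C1QA*, had medians of 995, 976 and 649 CPM in groups R, B and C, with its highest value, 1654 CPM, in beef tallow 3. The endothelial markers, 4 with a gene ID, ran from 211 to 340, from 327 to 375 and from 278 to 367 CPM over groups R, B and C. The summed hepatocyte markers had medians of 120346, 103860 and 116635 CPM, with the lowest value, 62965 CPM, in beef tallow 3. From R to B, 1 of 6 Kupffer cell markers tested was called with edgeR, *CD163*, which rose by 0.79 on the log2 scale (1.11% of all genes were called there). *MARCO* had -0.55, *C1QA* 0.15, *CD68* 0.17, *C1QC* 0.33 and *C1QB* 0.67, and the list median was 0.25. From B to C no Kupffer cell marker was called with edgeR, and 4 of 6 had an unadjusted p below 0.05, all lower in group C, beside 11.5% of all genes (6.21% lower). These were *C1QA* (-0.80, groups without overlap, as for 0.881% of all genes in that direction), *C1QB* (-0.76), *CD68* (-0.62) and *CD163* (-0.49), with a list median of -0.55, in the pair where *HAL*, *FTCD* and *GNMT* were lower at the same level. From R to C *C1QA* had -0.65 (adjusted p = 0.145, edgeR) and the list median was -0.21. From R to B, *LYVE1* of the sinusoid was called with edgeR among 3 endothelial markers and rose by 0.88 (list median 0.42), and *TTR* was called among 4 hepatocyte markers and fell by 0.78 (list median -0.19). *LYVE1* also had 0.86 from R to C (adjusted p = 0.104, edgeR), with groups without overlap, as for 1.46% of all genes in either direction. Its value from B to C was -0.02. The summed stellate cell markers (medians 449, 398 and 458 CPM) and lymphocyte markers (medians 117, 108 and 111 CPM) overlapped between all diets. No marker with a gene ID was at 0 in every pig. The part of these markers in the values of the members was not tested.

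The genes whose pattern over the 16 pigs was most like that of *HAL*, by Pearson r of log2 CPM among 6042 genes with a symbol, were *MTMR7* (0.86), *RPL7L1* (0.84), *TXLNG* (0.83), *PUM3* (0.83) and *CDADC1* (0.81). After the mean of each diet was subtracted, these r were 0.78, 0.70, 0.69, 0.57 and 0.65. For *FTCD* they were *NUCB1* (0.92), *KIAA2013* (0.88), *CD82* (0.88), *PDCD4* (0.86) and *EDF1* (0.85), and 0.89, 0.79, 0.77, 0.73 and 0.74 after subtraction. These are the upper ends of many correlations over the same 16 pigs, and no gene of the pathway lists was among them. The part of depth and library in these correlations was not tested.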

How the data were processed

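Liver RNA of 16 pigs was sequenced from mRNA 3′ ends, 1 library per pig. Per gene, the deposited files hold raw counts, which the authors made from trimmed reads with TopHat (alignment to the Sus scrofa 11.1 genome) and HTSeq-count (genes of Ensembl release 96). Reads with several alignments were counted on no gene. The 5 tallies of reads on no gene were used only for shares.

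Each pair of diets was fitted on its own without covariates with edgeR 4.0.16 (R 4.3.3, quasi-likelihood test), with TMM scaling, genes kept by filterByExpr (minimum count 10, minimum total 15) and Benjamini-Hochberg adjustment over all genes tested. A gene was called below an adjusted p of 0.05, with no fold threshold. The SE is the log2 fold change over the square root of F. Sexes were compared likewise over all pigs. Correlations used log2 CPM (prior count 2) and 100000 permutations within diets. Fits were tested on simulated data, with 100 genes changed 2-fold and 100 changed 4-fold. Of the 2-fold changes, 42% were called from R to B, 62% from R to C, 57% from B to C and 80% between the sexes. Of the 4-fold changes, 90% to 94% were called. False calls made up 5.71%, 7.32%, 3.92% and 5.95% of calls in the same order.

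The members, lists and tests were chosen with earlier results of these data known. Named were all members, per pair of diets the 3 genes of the other lists with the smallest unadjusted p, and the 5 genes most like *HAL* and *FTCD*. *SDS*, *CPS1* and *ARG1* were named after their values were seen. List symbols without a gene ID (among them *FOLH1*, *GCSH*, *GLUL*, *KRT19*, *PEMT*, *PIPOX*, *SLC19A1*, *STAB2*, *VWF*) were not analysed here. Alternatives were DESeq2 1.42.0, RLE scaling, other filters, 1 fit over 16 pigs, sex or diet as a covariate, a replicate block and leaving out each pig. The share of reads with several alignments as a covariate and the correlations with depth were added after seeing the data.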

Additional observations from a re-analysis of the deposited data

Results flagged for a closer look

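In 30 groups, each the pigs of 1 diet for 1 member, 3 pigs stood far from the rest of their group by Dixon's test, which flags about 1 group in 20 by chance. Beef tallow 3 had an *FTCD* level of 216 CPM, with the next beef tallow pig at 107 CPM. The same pig had a *GNMT* level of 1075 CPM, with the next at 561 CPM. Coconut oil 3 had an *SHMT2* level of 6.17 CPM, which rests on 4 reads, with the next pig at 1.22 CPM. These were the 2 libraries with the largest shares of reads aligned to several places, 33.2% and 38.1%. Within the beef tallow group the r of this share was 0.94 with *FTCD* and 0.96 with *GNMT* (5 pigs each). Over 16 pigs, with diet means subtracted, it was 0.53 with *FTCD* and 0.15 with *GNMT*, neither past adjustment over 14 relations, and -0.22 and -0.33 without these 2 pigs. With the share as a covariate, the log2 fold change from B to C was -0.85 for *FTCD* and -1.08 for *GNMT* (adjusted p = 0.267 and 0.247, edgeR).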

How the results depend on the processing

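The count of all genes called from R to B, 70, became 190 with DESeq2, 190 without the filter on low counts, 35 with the replicate block and 193 with the share of reads with several alignments as a covariate, and 9 (without rapeseed oil 5) to 149 (without beef tallow 3) with 1 pig left out. From R to C, 9 became 93 with DESeq2, 82 without the filter, 14 with at least 10 reads in every pig, and 3 to 27 with 1 pig left out. From B to C, 4 became 46 with DESeq2, 22 without the filter, 8 with all 16 pigs in 1 fit, and 4 to 9 with 1 pig left out. Between the sexes, 5 became 10 without the filter.

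Members called numbered 1 from R to B and 0 to 1 with 1 pig left out. From R to C there were 0, and 1 (*FTCD*) with DESeq2 or without the filter and 0 to 1 with 1 pig left out. From B to C there were 0, and 2 (*HAL*, *GNMT*) with DESeq2 or without the filter and 0 with any pig left out. *HAL* from R to B was called in 7 of 8 other settings, with log2 fold changes of 1.37 to 1.52. The exception was the replicate block, which left 0 members called (*HAL* 1.46, adjusted p = 0.0801, edgeR). The labels do not say what a shared number stands for. The r between deviations of same-numbered pigs was -0.25 to 0.14 over 15 pairs. In each pair of diets, 1 to 3 of 5 pigs had their highest r with the pig of their own number. Whether the numbers mark a block was not tested.

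Signs turned for values near 0. *AMDHD1* from R to B was 0.18 with sex and 0.00638 with the several-alignment share as a covariate, and -0.68 to 0.18 with 1 pig left out. *HAL* from R to C was -0.16 with that share as a covariate and -0.0144 to 0.49 with 1 pig left out, and -0.24 between the sexes with diet as a covariate. With 1 pig left out, *FTCD* from R to B was -0.51 to 8.8e-05 and *ALDH1L1* from B to C -0.0379 to 0.18. Where no construction shows it, the cause was not tested. The read counts of *AMDHD1*, *SHMT1*, *SHMT2* and *MAT1A* give the least precision.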
